A study of Mus musculus with 40 samples.

Results

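The genes described here are targets and regulators of ATF4, the transcription factor that cells use to answer amino acid shortage and other stress. A list of 34 such genes was looked up by symbol in an expression table of 23812 rows from mouse skin and mast cells, and all 34 were found. A gene was kept where at least 4 of the 40 libraries reached 1 FPKM (mapped fragments scaled to the length of the transcript and the size of the library). This kept 30 genes, and 13689 rows of the whole table passed the same filter. The other four stayed low in every library: Slc7a3, a cationic amino acid transporter, reached at most 0.360 FPKM, Slc7a11, the cystine transporter, 0.472 FPKM, Pycr1, of proline synthesis, 0.765 FPKM, and Fgf21, a secreted hormone, 0.149 FPKM.

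The study asked how MrgprD neurons, sensory fibres that end in the epidermis, act on skin mast cells, and it gave 10 groups of 4 libraries. Ear skin and sorted skin mast cells came from mice that carry the allele Mrgprdtm1.1(cre)And/Mmnc on a B6.129S1(Cg) background (Cre), and from their cross (DTR) with mice that carry Gt(ROSA)26Sortm1(HBEGF)Awai/J on C57BL/6. In the cross, Cre driven from the Mrgprd gene switches on the diphtheria toxin receptor (DTR), so that the toxin kills the MrgprD neurons. Both kinds of mice had acetone and olive oil (4:1) on the skin. The sample labels list the toxin for DTR mice only, the treatment protocol for both, so whether Cre controls also received it is unsettled. DTR and Cre mice thus differ in strain background and alleles, and perhaps in toxin, as well as in the ablation. These cannot be told apart, and ablation below names the comparison of DTR with Cre. The labels call the skin epidermal and the design text whole ear, and markers of fat and muscle were present in every skin library. Another pair of skin groups came from C57BL/6J mice that received 50 mM β-alanine, an agonist of the MrgprD receptor, or PBS vehicle once daily for 2 days. Peritoneal mast cells cultured from C57BL/6J mice were kept for 6 h in a buffer without glutamate, with vehicle or 4 mM glutamate, or for 48 h with vehicle or 50 uM NS102, a blocker of kainate-type glutamate receptors. The sources used here do not say whether the 4 libraries of a group came from separate animals or cultures, nor whether animals were pooled, so p-values measure the spread between these libraries, which may be technical.

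Summed FPKM ran from 117574 to 508485 per library, and read depth is unknown. The 11 mast cell markers summed to 9895 to 29875 FPKM in sorted cells and to 65889 FPKM or more in culture, while Krt5 and Krt14, keratins of the epidermis, were at 0 in all cultured libraries. Sorted Cre library 4 stood apart, with 380 FPKM of summed fibroblast markers against 1.64 to 53.5 FPKM in the other Cre libraries, and sorted Cre library 2 held 664 FPKM of red blood cell markers. Of the sorted DTR libraries, library 3 held 126 FPKM of fibroblast markers and the others 1.98 to 25.5 FPKM. Mrgprd itself reached at most 0.158 FPKM in any library, so its level does not check the ablation. Sorted-cell counts are also given without Cre library 4 and without Cre library 2. Each test compared log2(FPKM + 1) of 4 treated and 4 control libraries with limma over all genes at 1 FPKM or more in at least 4 of the 8. A gene is called where its Benjamini-Hochberg adjusted p is under 0.05, and log2 changes are on that log2(FPKM + 1) scale, which understates changes of low genes.

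Cells lower general protein synthesis under stress by phosphorylating the translation factor eIF2. The kinase GCN2 does so when uncharged tRNA builds up, PERK when misfolded protein fills the endoplasmic reticulum, PKR with viral RNA and HRI with heme shortage. Atf4 mRNA is then translated more efficiently because of short reading frames upstream of its coding sequence, so its protein can rise with little change in its mRNA. ATF4 pairs with C/EBP family proteins on a composite DNA element and raises genes for amino acid transport and synthesis, tRNA charging and export, and redox balance. It also raises its own brakes, among them the pseudokinase Trib3, and Ppp1r15a, which reverses eIF2 phosphorylation, and under lasting stress Ddit3 (CHOP), tied to cell death.

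The composite element was searched for in RefSeq promoters of build GRCm38.p6, from 250 bases before to 50 after each start, as TGATGNAA or, on the opposite strand, TTNCATCA. The table has promoters for 30 of the 34 listed genes. The element was in 9 of their 38 promoters, one in each of 9 genes, and in 1304 of all 32851 promoters (3.97%). Of the 27 kept genes with a promoter, 6 held it, and they are shown because the values of Asns, Nupr1, Trib3 and Chac1 carry much of what follows. Not kept were Slc7a11, Fgf21 and Pycr1. The Slc7a11 promoter held the element at -66 and again, on the opposite strand, at -47. Each stretch is written 5′ to 3′ on the gene's own strand, with the element in capitals. Counted from the start, the first element base lies at -23 in Asns (chr6:7693210-7693268, minus strand), at -193 in Chac1 (chr2:119351013-119351092, plus strand), at -110 in Nupr1 (chr7:126625537-126625616, minus strand), at -33 in Jdp2 (chr12:85599347-85599415, plus strand), at -200 in Vldlr (chr19:27216784-27216863, plus strand) and at 15, past the start, in Trib3 (chr2:152344028-152344057, minus strand). A match describes these letters and is not evidence of binding.
Asns: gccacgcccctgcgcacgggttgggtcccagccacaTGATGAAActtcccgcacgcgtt
Chac1: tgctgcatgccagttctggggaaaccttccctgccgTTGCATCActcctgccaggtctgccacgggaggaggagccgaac
Nupr1: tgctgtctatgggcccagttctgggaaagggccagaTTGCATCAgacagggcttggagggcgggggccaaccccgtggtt
Jdp2: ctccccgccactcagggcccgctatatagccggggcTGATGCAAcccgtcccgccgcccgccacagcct
Vldlr: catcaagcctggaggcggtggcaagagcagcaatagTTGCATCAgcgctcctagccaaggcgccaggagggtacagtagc
Trib3: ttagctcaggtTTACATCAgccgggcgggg

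Levels differed between kinds of sample. All 30 had a group mean of at least 1 FPKM in each skin group, 19 to 22 did so in the sorted and cultured groups. Atf4 (mm9 chromosome 15, 80085613 to 80087971) had group means of 77.4 to 113 FPKM in skin, 23 to 28.2 FPKM in sorted cells and 3.84 to 12.6 FPKM in culture. Ddit3 (chromosome 10, 126727848 to 126733344) was ordered otherwise, with 14.6 to 19.4 FPKM in skin, 47.4 to 59.0 FPKM in sorted cells and 116 to 121 FPKM in culture at 6 h, but 25.5 to 38 FPKM at 48 h. Asns (chromosome 6, 7625170 to 7643182) ranged from 0.643 FPKM in sorted DTR cells to 32.7 FPKM with glutamate. Kinds of sample were not tested against each other, because tissue, strain and treatment change together. Ddit3 overlaps Mars on the genome, Shmt2 overlaps Ndufa4l2, Slc6a9 overlaps Ccdc24 and Atf5 overlaps Nup62. Whether counting used strand is not given in the sources used here, so reads of these pairs may be shared and their values are uncertain.

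**Figure D1:**
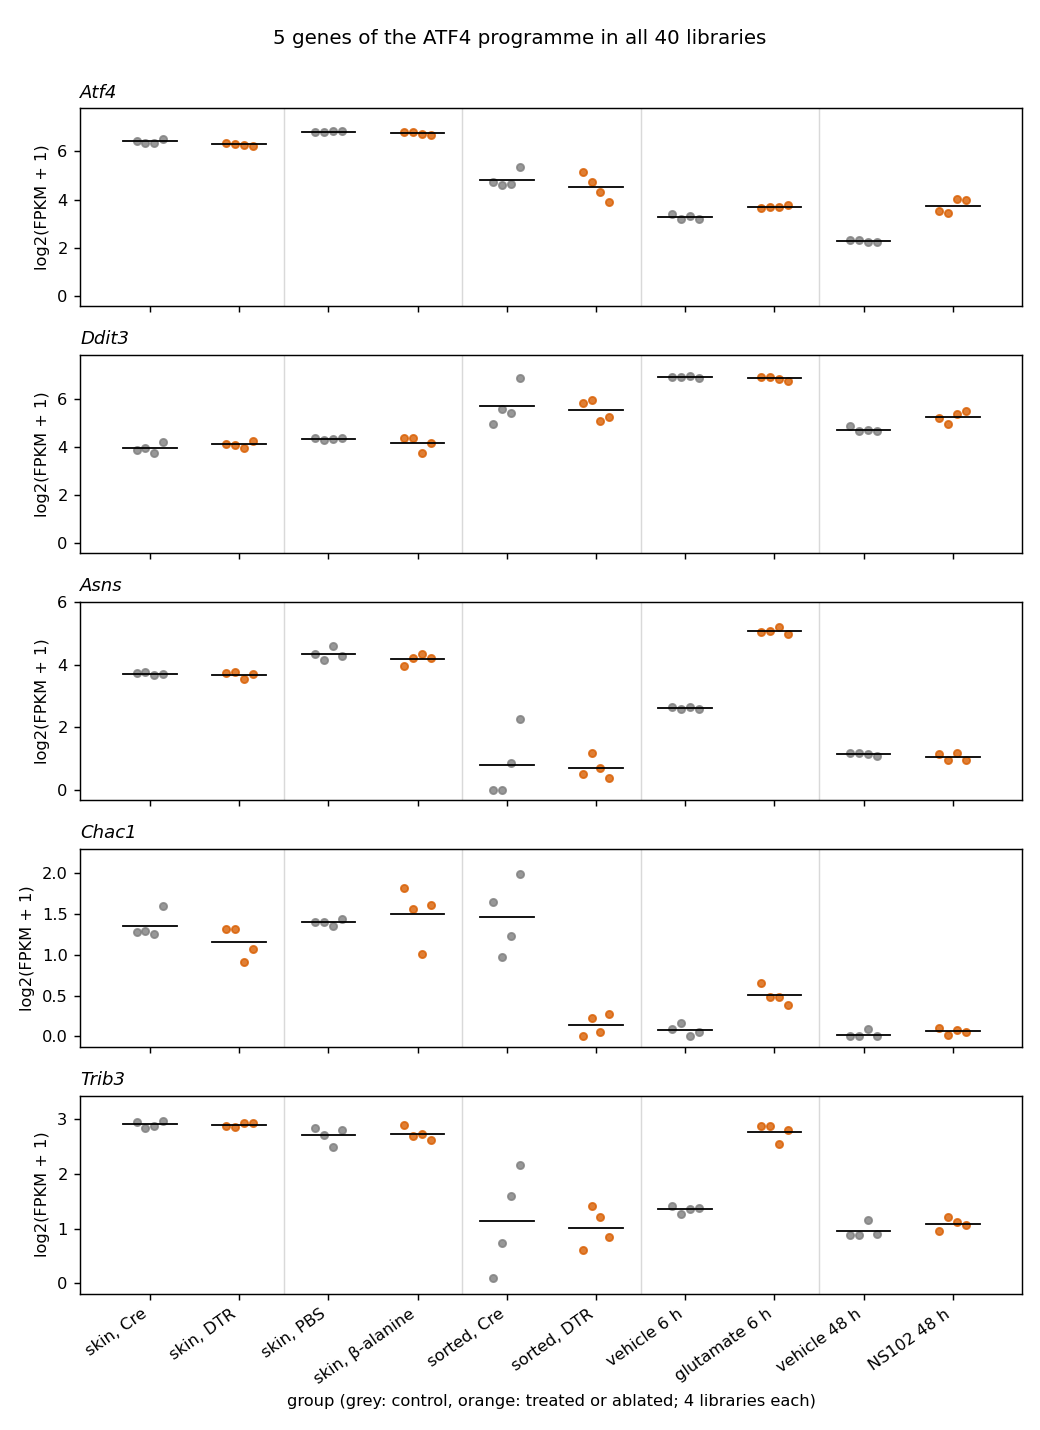
Levels of Atf4, Ddit3, Asns, Chac1 and Trib3 as log2(FPKM + 1) in each of the 40 libraries, by group; each point is a library and each line a group mean of 4. Asns and Trib3 stand higher with glutamate than with the 6 h vehicle, Atf4 stands higher with NS102 than with the 48 h vehicle, and Chac1 is lower in sorted DTR than in sorted Cre cells.

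Glutamate for 6 h raised the amino acid genes of the programme in cultured mast cells. Asns, the enzyme that makes asparagine, rose most, and genes of serine and one-carbon metabolism, amino acid transport and the brakes Trib3 and Eif4ebp1 rose with it. Of 22 genes tested, 13 rose, 3 fell and 6 did not pass, and the other eight were too low to test. The rises make 59.1% of those tested, where 16.9% of all 8297 genes rose, and the falls make 13.6%, where 62.4% of all genes fell. All genes together shifted by a median of -0.33 on the log2 scale and the 22 by a median of 0.41. After centring each library on its median, 18 of the 22 rose (44.6% of all genes did) and 2 fell (31.5% of all genes did). The mast cell marker sum was also higher, 69294 FPKM with vehicle and 93642 FPKM with glutamate, and the part of that shift in these results was not tested. Within the sum, Kit went from 397 to 191 FPKM. Tpsab1, Ms4a2, Mrgprb2 and, slightly, Gata2 were also lower, while the other markers were higher.

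Asns read 5.28, 4.92, 5.26 and 5.01 FPKM with vehicle and 31.9, 32.7, 35.7 and 30.7 FPKM with glutamate. Every treated library was far above every control library, a log2 change of 2.46 (SE 0.06, limma adjusted p = 1.84e-12) and 6.39 times in means. Aldh18a1, which opens proline synthesis, went from 9.36 ± 1.1 to 18.1 ± 0.84 FPKM (SD, n = 4), a log2 change of 0.89 by limma (adjusted p = 1.36e-07). Other enzymes were below the filter and were not tested. Gpt2, mitochondrial alanine aminotransferase, lay at 0.207 to 0.406 FPKM with vehicle and at 0.534 to 0.881 FPKM with glutamate. Cth, which makes cysteine from cystathionine, lay at 0.0246 to 0.174 and at 0.191 to 0.515 FPKM. In both the groups did not overlap, at levels of under 1 FPKM. The share of all genes without overlap was not computed. Atf5, Ddit4, Vldlr and Stc2 were also below the filter, and their groups overlapped. Means with vehicle and glutamate were 0.212 and 0.111 FPKM for Atf5 and 0.267 and 0.201 FPKM for Ddit4. They were 0.168 and 0.226 FPKM for Vldlr and 0.0184 and 0.0268 FPKM for Stc2.

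Serine synthesis runs from Phgdh through Psat1 to Psph, and its end was not changed like its start. Psat1 read 8.72, 7.97, 9.09 and 8.80 FPKM with vehicle and 19.6, 21, 21.9 and 19.1 FPKM with glutamate, a log2 change of 1.15 (SE 0.06, limma adjusted p = 1.37e-09). Phgdh, the first enzyme, rose from 16.2 ± 0.89 to 21.6 ± 1.2 FPKM (SD, n = 4). Psph, the last, fell from 9.73 ± 0.31 to 7.34 ± 0.31 FPKM, but its change turned to 0.05 (limma adjusted p = 0.392) after median centring and to 0.01 after quantile normalization. The mitochondrial enzymes that carry serine's carbon onward both passed. Mthfd2 read 11.1, 10.02, 9.48 and 11 FPKM with vehicle and 35.5, 34.4, 33.1 and 31.8 FPKM with glutamate, a log2 change of 1.61 (SE 0.06, adjusted p = 7.95e-11 by limma). Shmt2 moved little, from 12.5 ± 0.84 to 14 ± 0.59 FPKM, its groups overlapped, and leaving out glutamate library 2 or 4 or vehicle library 3 or 4 ended its call (limma adjusted p = 0.0271 with all libraries, up to 0.0792 without vehicle library 3).

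Among the transporters, both chains of the large neutral amino acid exchanger rose together. Slc3a2, the heavy chain, read 109, 104, 101 and 105 FPKM with vehicle and 218, 227, 219 and 211 FPKM with glutamate, a log2 change of 1.05 (SE 0.03, limma adjusted p = 3.56e-11). Slc7a5, its light chain LAT1, rose from 18.3 ± 0.37 to 27.7 ± 1.9 FPKM (SD, n = 4). Slc7a1, for cationic amino acids, lay below the filter at 0.208 to 0.345 FPKM with vehicle and at 0.904 to 1.09 FPKM with glutamate, without overlap. Slc6a9, the glycine transporter, was at 1.09 ± 0.24 and 1.26 ± 0.099 FPKM and did not pass (limma adjusted p = 0.215). It did pass after median centring, at a log2 change of 0.53 (limma adjusted p = 0.000105).

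The transcription factors were split, though less so after median centring. Atf4 itself went from 8.75 ± 0.62 to 12.1 ± 0.39 FPKM (SD, n = 4), a log2 change of 0.42 (SE 0.06, limma adjusted p = 1.61e-05), small beside that of Asns. Nupr1, a stress-induced chromatin protein, read 2.34, 1.87, 2.07 and 3.05 FPKM with vehicle and 11.1, 12.1, 15.4 and 10.4 FPKM with glutamate, a log2 change of 1.99. Cebpb, a C/EBP partner of ATF4, read 0.182, 1.84, 3.47 and 2.26 against 10.3, 14.5, 7.69 and 3.02 FPKM. It passed (limma adjusted p = 0.00148), but its groups overlapped, and vehicle library 1 lay far below the other vehicle libraries. Ddit3 was at 121 ± 3.0 and 116 ± 5.7 FPKM and did not pass (log2 change -0.06, limma adjusted p = 0.167), while after median centring its change was 0.35 (adjusted p = 2.57e-06). Cebpg and Jdp2, other partners, did not pass, at log2 changes of 0.06 and -0.27. With median centring Cebpg passed (0.48, limma adjusted p = 6.02e-05) and Jdp2 did not (0.14, limma adjusted p = 0.492).

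The brakes and stress regulators also went both ways. Trib3 read 1.68, 1.41, 1.57 and 1.6 FPKM with vehicle and 6.37, 6.33, 4.83 and 6.04 FPKM with glutamate, a log2 change of 1.42 (SE 0.08, limma adjusted p = 5.39e-09). Eif4ebp1, which holds back cap-dependent translation, rose from 42.6 ± 1.1 to 84.0 ± 6.6 FPKM (SD, n = 4). Ppp1r15a fell: it read 18.8, 18.6, 16.6 and 16.3 FPKM with vehicle and 8.88, 8.55, 7.0 and 7.28 FPKM with glutamate, a log2 change of -1.06 (SE 0.08, limma adjusted p = 3.84e-08) and of -0.65 after median centring. Xpot, the exporter of tRNA from the nucleus, fell from 2.18 ± 0.26 to 0.997 ± 0.058 FPKM. Chac1, which breaks down glutathione, was not tested because it was low, but read 0.0692, 0.116, 0 and 0.0386 FPKM with vehicle against 0.574, 0.401, 0.392 and 0.305 FPKM with glutamate. Sesn2, which limits mTORC1, was at 2.95 ± 0.47 and 3.14 ± 0.28 FPKM and did not pass. Its log2 change after median centring was 0.49 and passed (limma adjusted p = 0.000137).

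Lists of related genes were read against the same background, 16.9% of all genes up and 62.4% down with glutamate. Of 20 cytosolic aminoacyl-tRNA synthetases, which charge tRNA and many of which ATF4 is known to raise, 10 rose, 5 fell and 5 did not pass, with a median log2 change of 0.12. Sars went from 14.6 ± 0.41 to 25 ± 1.3 FPKM, Yars from 5.14 ± 0.46 to 11.1 ± 0.29 FPKM and Mars from 5.73 ± 0.62 to 12.3 ± 0.79 FPKM (SD, n = 4). Of 18 further ATF4 targets tested 7 rose and 6 fell, among them Gadd45a, a stress-induced growth arrest gene, from 13.7 ± 0.44 up to 34.3 ± 1.3 FPKM, and the amino acid transporter Slc38a2, from 7.79 ± 0.40 down to 3.48 ± 0.18 FPKM. Of 19 genes of the IRE1 and ATF6 arms of the unfolded protein response, 13 rose and 2 fell, as in the chaperone Calr (69.9 ± 1.1 to 149 ± 3.9 FPKM). Of 14 eIF2 kinases and switch components, 1 rose and 9 fell, and the share of falls, 64.3%, is near that of all genes. Eif2ak1, which encodes HRI, fell from 13.5 ± 2.0 to 4.00 ± 0.46 FPKM.

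With NS102 for 48 h, cultured mast cells changed in another way: Atf4 and most other transcription factors rose, and the amino acid enzymes fell or did not pass. Of 22 genes tested 7 rose, 8 fell and 7 did not pass, and the other eight were too low to test. These shares, 31.8% up and 36.4% down, are near those of all 8373 genes, where 30.8% rose and 39.7% fell. The counts therefore say nothing about the list as a whole, and the medians, -0.02 for the 22 and -0.06 for all genes, were close. By role, 5 of 6 transcription factors rose and 0 fell, while 4 of 4 serine and one-carbon enzymes fell and 0 rose. This split was seen in the values and was not tested.

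Atf4 read 3.94, 3.96, 3.79 and 3.66 FPKM with vehicle and 10.4, 9.94, 15.2 and 14.9 FPKM with NS102, a log2 change of 1.47 (SE 0.12, limma adjusted p = 6.79e-07). All treated libraries were above all controls, and libraries 3 and 4 were the highest. Ddit3, the CHOP gene, went from 25.5 ± 1.9 to 38 ± 6.0 FPKM (SD, n = 4), a log2 change of 0.54 (SE 0.10). Cebpb had the largest log2 change of the list, 2.27 (SE 0.30), reading 0.257, 1.89, 3.42 and 2.82 FPKM with vehicle and 13.6, 12.5, 13.5 and 10.6 FPKM with NS102. Here too vehicle library 1 was the lowest. Jdp2, an AP-1 repressor that pairs with ATF and Jun proteins, rose from 6.46 ± 1.6 to 11.5 ± 0.87 FPKM. Nupr1 rose from 0.636 ± 0.33 to 2.34 ± 1.1 FPKM. Cebpg did not pass (3.96 ± 0.19 and 3.90 ± 0.45 FPKM, limma adjusted p = 0.827).

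Of the regulators downstream, Ppp1r15a read 20.01, 16.6, 16.5 and 17 FPKM with vehicle and 25.3, 21.9, 32.8 and 32.4 FPKM with NS102, a log2 change of 0.64 (SE 0.12, limma adjusted p = 0.000341). Trib3 was at 0.946 ± 0.19 and 1.13 ± 0.15 FPKM, its groups overlapped and it did not pass (adjusted p = 0.2 by limma). Quantile normalization turned the sign of its change to -0.04. Eif4ebp1 fell from 24.1 ± 0.72 to 18.9 ± 1.2 FPKM. Chac1 was near 0 in both groups, at most 0.0668 FPKM with vehicle and 0.0737 FPKM with NS102.

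The enzymes and the exchanger were lower or flat. Psat1 read 3.11, 2.87, 3.25 and 2.85 FPKM with vehicle and 0.986, 1.17, 1.05 and 0.853 FPKM with NS102, a log2 change of -0.998 (SE 0.08, limma adjusted p = 3.6e-07). Psph fell from 9.998 ± 0.67 to 5.82 ± 0.60 FPKM, and Phgdh, below the filter, lay at 0.639 to 1.20 FPKM with vehicle and 0.194 to 0.336 FPKM with NS102. Shmt2 fell from 9.78 ± 0.59 to 8.19 ± 0.24 FPKM and Mthfd2 from 15.4 ± 0.98 to 12.8 ± 0.69 FPKM, both without overlap. Cth read 1.88, 1.53, 2.16 and 1.87 against 0.390, 0.416, 0.674 and 0.329 FPKM; it passed the filter through the vehicle group alone, so that a fall was built in. Aldh18a1 fell from 8.40 ± 1.2 to 6.59 ± 0.34 FPKM. Asns, at 1.19 ± 0.073 and 1.07 ± 0.18 FPKM, did not pass (adjusted p = 0.363 by limma), though under quantile normalization its log2 change of -0.23 did (adjusted p = 0.02). Slc3a2 read 145, 144, 143 and 136 FPKM with vehicle and 102, 98.4, 93.5 and 87.9 FPKM with NS102, a log2 change of -0.57. Its partner Slc7a5 did not pass (1.72 ± 0.091 and 1.82 ± 0.11 FPKM). Slc6a9 was the only riser of the 3 transporters tested, from 0.630 ± 0.061 to 3.64 ± 0.53 FPKM, and it passed the filter through the NS102 group alone, so that a rise was built in.

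Among the related genes, 3 of 14 eIF2 kinases and switch components rose and 6 fell with NS102, shares of 21.4% and 42.9% beside 30.8% and 39.7% of all genes. Eif2ak1 rose from 11.1 ± 0.97 to 17.4 ± 1.8 FPKM, and Eif2s3x, the γ subunit of eIF2, fell from 15.1 ± 1.3 to 9.21 ± 0.23 FPKM (SD, n = 4). The 20 tRNA synthetases were evenly divided, 5 up and 5 down, each 25% and so under the share of all genes, with Dars at 28.8 ± 2.3 and then 16.6 ± 0.94 FPKM and Eprs at 1.74 ± 0.48 and then 5.87 ± 1.5 FPKM. Further ATF4 targets rose in 7 and fell in 3 of 16, with the autophagy receptor Sqstm1 up from 399 ± 16 to 591 ± 22 FPKM. The IRE1 and ATF6 genes rose in 7 and fell in 8 of 19, with Sdf2l1, a chaperone partner in the endoplasmic reticulum, down from 125 ± 4.6 to 74.6 ± 5.6 FPKM.

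**Figure D2:**
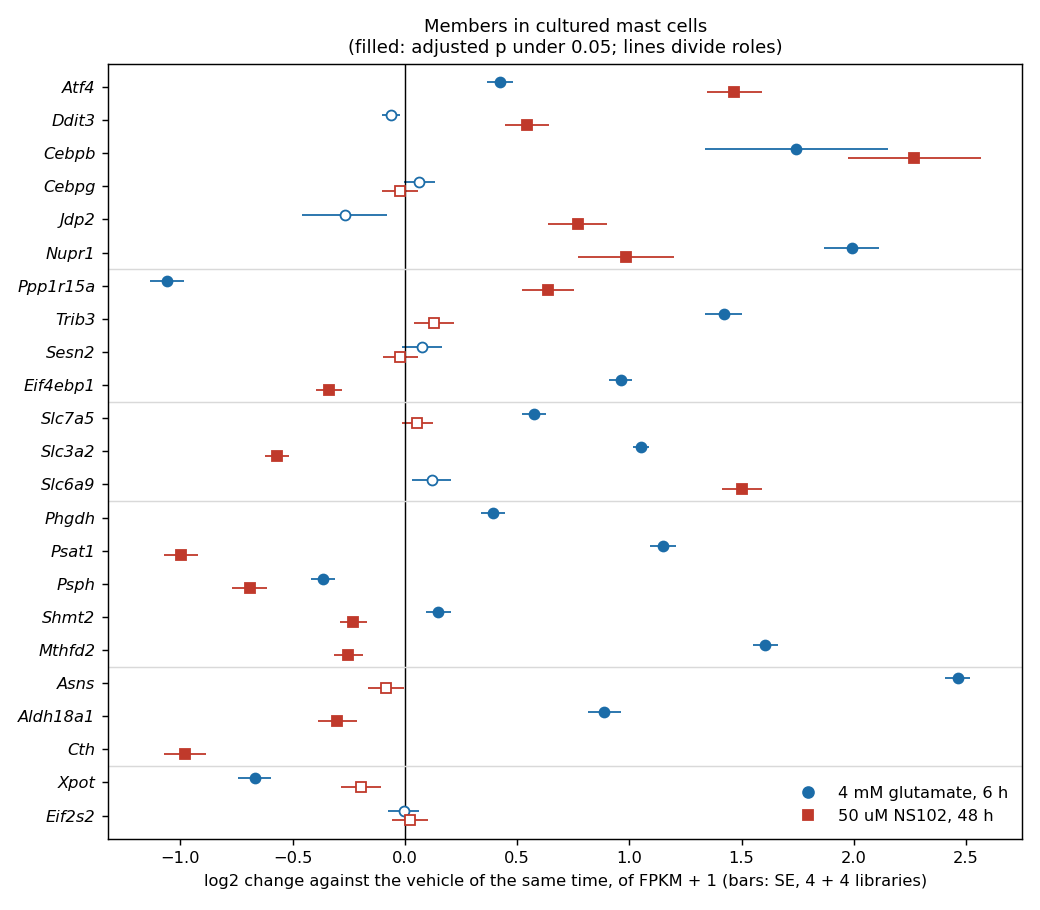
Change of each tested gene with glutamate at 6 h (blue circles) and NS102 at 48 h (red squares) against the vehicle of the same time; the x axis is the log2 change of FPKM + 1, bars are SE over 4 and 4 libraries, and filled symbols have an adjusted p under 0.05. Asns, Mthfd2, Psat1, Slc3a2 and Eif4ebp1 lie to the right of 0 with glutamate and to the left of it or near it with NS102, and Ppp1r15a does the reverse.

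The difference between the effects of both agents was tested over the 16 culture libraries. NS102 and glutamate differ in dose, time and medium, so this compares 2 experiments and not 2 agents under like conditions. The effects differed in 19 of 23 genes, while they differed in 75.9% of all 8896 genes, where the median difference was 0.29. Asns differed most, by -2.55 (NS102 effect less glutamate effect on the log2 scale, SE 0.10, limma adjusted p = 1.29e-13), followed by Psat1 at -2.15, Mthfd2 at -1.86 and Slc3a2 at -1.62. The 6 genes with the higher effect of NS102 were Ppp1r15a at 1.70, Slc6a9 at 1.38, Atf4 at 1.04, Jdp2 at 1.04, Ddit3 at 0.61 and Xpot at 0.47. Those of Ddit3, Jdp2 and Xpot no longer passed after median centring (limma adjusted p = 0.136, 0.0502 and 0.82), and that of Nupr1 (-1.01) did not pass at a pseudocount of 0.1 (adjusted p = 0.177).
Cebpb, raised in both, did not differ beyond its error (0.53, SE 0.58). In the 2 vehicle groups alone, which are also the controls above, 7 genes were higher at 48 h than at 6 h and 10 lower, of 22 (34.2% and 37.7% of all genes). Slc7a5 stood at 18.3 FPKM at 6 h and 1.72 FPKM at 48 h, and Phgdh at 16.2 and 0.902 FPKM.

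In sorted skin mast cells, 9 of the genes differed between DTR and Cre mice. Cebpb and Ddit4 were almost absent in DTR cells, Cebpg, Sesn2 and Jdp2 were also lower, and Psat1, Slc7a5, Aldh18a1 and Psph were higher. Of these, Cebpb, Ddit4 and Sesn2 passed the filter only through Cre cells and Psat1 only through DTR cells, so their directions were built in. Of 21 genes tested, 4 rose, 5 fell and 12 did not pass. The share that rose, 19%, is that of all 8871 genes (18.9%), and the share that fell, 23.8%, is not far from theirs (16.9%), so the counts say nothing about the list as a whole. All genes shifted by a median of 0.13 and the 21 by -0.13. After median centring 5 rose and 6 fell, where 26.1% and 21.5% of all genes did. Without Cre library 4, 7 rose and 5 fell, and without Cre library 2, 3 and 5. The shares of all genes called without these libraries were not computed, so these counts also say nothing about the list as a whole. All 9 calls held without Cre library 4, and without Cre library 2 all but that of Psph did (limma adjusted p = 0.0678).

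Cebpb (mm9 chromosome 2, 167514414 to 167515918) read 63.5, 53.7, 29.2 and 30.8 FPKM in Cre cells and 0.281, 0.110, 0.113 and 0.109 FPKM in DTR cells. The groups were far apart, with a log2 change of -5.22 (SE 0.26, limma adjusted p = 3.8e-12). Ddit4 (REDD1), which limits mTORC1 under stress, read 7.54, 5.85, 5.84 and 6.54 against 0.723, 0.407, 0.467 and 0.289 FPKM, a log2 change of -2.34 (SE 0.22). Sesn2, a leucine sensor that also limits mTORC1, read 2.59, 2.79, 2.68 and 2.06 against 0.695, 0.685, 0.530 and 0.792 FPKM. Cebpb, Ddit4 and Sesn2 passed the filter through the Cre libraries alone, so that a fall was built in. Cebpg fell from 5.23 ± 0.63 to 1.56 ± 0.59 FPKM (SD, n = 4) and Jdp2 from 6.13 ± 2.3 to 2.51 ± 1.2 FPKM, neither with overlap. Chac1 read 2.13, 0.955, 1.34 and 2.96 FPKM in Cre cells and 0, 0.168, 0.0361 and 0.208 FPKM in DTR cells, and was too low for the filter. In bulk samples such as these, fewer cells of a type and less RNA per cell cannot be told apart. Markers listed for other cells moved alongside. The 6 basophil markers summed to 634 to 986 FPKM in Cre and 151 to 243 FPKM in DTR libraries. The 8 macrophage and monocyte markers summed to 41.4 to 51.5 and 6.85 to 17.4 FPKM, and the 5 endothelial markers to 8.48 to 14.7 and 0.0837 to 0.385 FPKM. The endothelial sum was mostly Pecam1, with means of 10.3 FPKM in Cre and 0.118 FPKM in DTR cells. Pecam1 had means of 19.5 to 35.96 FPKM in the cultured groups, where Cdh5 and Kdr were at 0. The basophil markers summed to means of 608 to 1081 FPKM in the cultured groups. Within that cultured basophil sum, means ran from 11.1 to 778 FPKM for Prss34 and from 235 to 582 FPKM for Cd200r3. Those of Il4 ran from 33.7 to 59.1 FPKM and those of Mcpt8 from 2.71 to 8.03 FPKM. Means of Ccr3 ran from 0.502 to 1.98 FPKM and those of Itga2 from 0.0750 to 0.120 FPKM. Some single markers, chosen after their values were seen, differed more than the sums. Mean levels in Cre and DTR cells were 343 and 2.11 FPKM for Mcpt8, a basophil protease, and 10.04 and 0.0364 FPKM for Ccr3. They were 26.8 and 0.0426 FPKM for Ccr2, and 6.06 and 0.0429 FPKM for Itgam. Others of the basophil and macrophage lists differed less, such as Cd200r3 (251 and 144 FPKM), Itga2 (3.495 and 2.45 FPKM) and Lyz2 (7.15 and 5.58 FPKM). Of both lists only Cd68 (2.7 and 5.003 FPKM) and Mrc1 (0.00429 and 0.00917 FPKM) were higher in DTR cells. None of the listed markers of these 3 types was at 0 in every library of a sorted group. The mast cell markers summed to 12159 ± 2253 FPKM in the Cre group and 23765 ± 5917 FPKM in the DTR group. Among them Fcer1a (573 and 289 FPKM), Hdc (381 and 291 FPKM) and Gata2 (228 and 96.4 FPKM) were lower in DTR cells and the others higher. Whether such other cells were present, and their part in the falls, was not tested.

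Slc7a5, the exchanger's light chain, read 6.76, 9.92, 9.44 and 11.6 FPKM in Cre cells and 26.6, 25, 17 and 13.5 FPKM in DTR cells, a log2 change of 1.02 (SE 0.25, limma adjusted p = 0.00377). Its heavy chain Slc3a2 was level at 51.9 ± 5.7 and 52.6 ± 15 FPKM (SD, n = 4). Aldh18a1 rose from 1.71 ± 0.39 to 3.93 ± 1.2 FPKM. Psat1 read 0.0483, 0.688, 0.512 and 0 against 2.61, 3.88, 1.31 and 1.38 FPKM, and it passed the filter through the DTR libraries alone, so that a rise was built in. Psph went from 3.33 ± 0.59 to 5.85 ± 1.6 FPKM with overlapping groups and an adjusted p of 0.0483 by limma, which leaving out any of 6 of the 8 libraries took past 0.05.

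The central genes did not pass in sorted cells. Atf4 was at 28.2 ± 7.8 FPKM in the Cre group and 23 ± 8.7 FPKM in the DTR group (SD, n = 4, limma adjusted p = 0.372), and its log2 change of -0.32 was -0.15 without Cre library 4. Ddit3 read 29.9, 47.2, 42 and 117 against 56.3, 62.1, 33.3 and 37.8 FPKM, with Cre library 4 alone above the rest, and its log2 change of -0.16 turned to 0.23 without that library and to 0.13 under quantile normalization. Trib3 read 0.0686, 0.657, 2.04 and 3.49 against 0.521, 1.66, 1.32 and 0.795 FPKM, and its log2 change of -0.13 was 0.21 without Cre library 4 and 0.12 at a pseudocount of 0.1. Asns was listed at 0 in Cre libraries 1 and 2 and at 3.77 FPKM in Cre library 4, against 0.290 to 1.24 FPKM in DTR cells. Cth was listed at 0 in all 8. Against 18.9% of all genes up and 16.9% down, 5 of 20 tRNA synthetases (25%) rose and 0 fell, as in Iars (1.40 ± 0.16 to 3.58 ± 1.0 FPKM). Of 16 further ATF4 targets tested 3 rose and 4 fell, with Gadd45a down from 14.7 ± 1.3 to 4.51 ± 2.5 FPKM. In the eIF2 kinase list 3 of 15 rose and 0 fell, and in the IRE1 and ATF6 list 1 of 18 rose and 2 fell, among them Xbp1, the IRE1 target (42.7 ± 4.7 to 23.8 ± 5.6 FPKM). The rises in the synthetase and kinase lists (25% and 20%) are near the share of all genes.

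**Figure D3:**
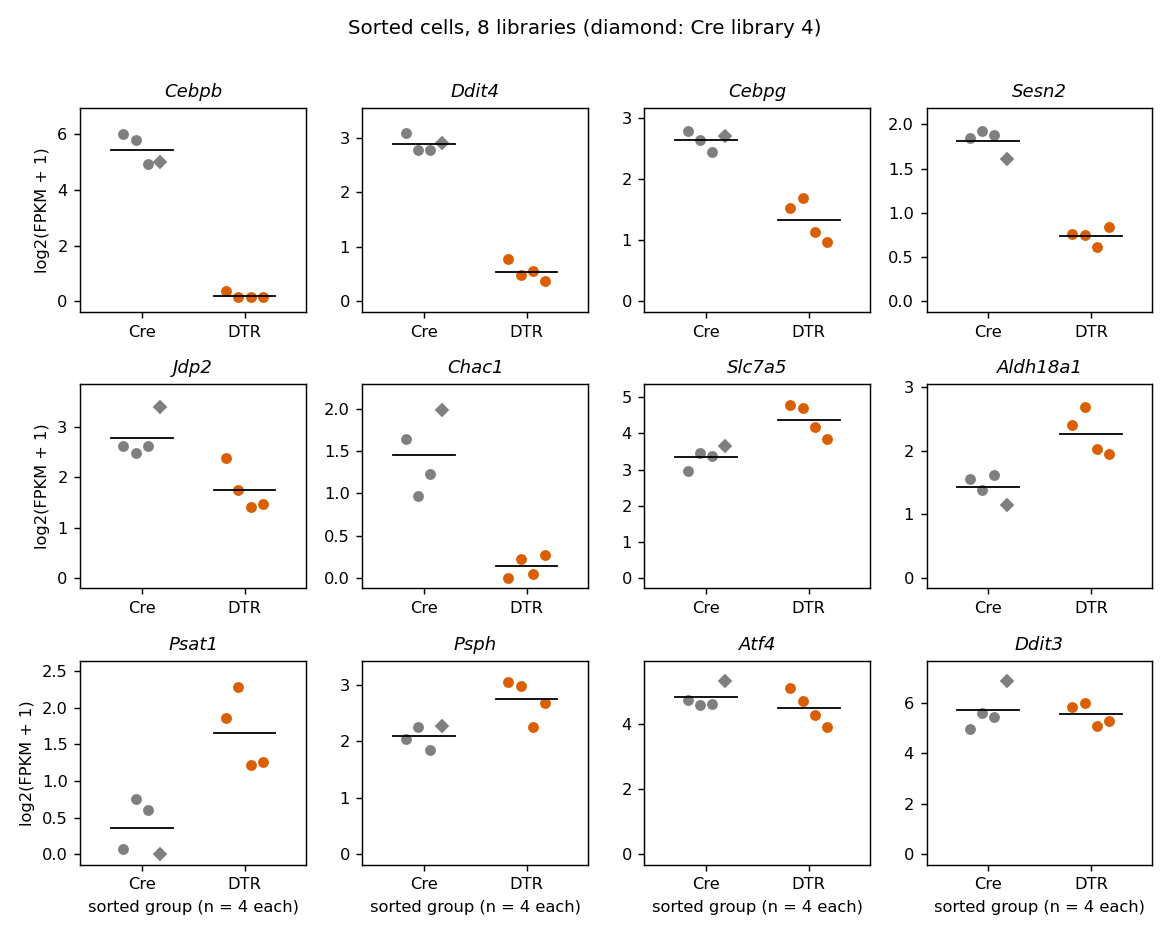
Levels of 12 genes as log2(FPKM + 1) in the 4 sorted Cre and 4 sorted DTR libraries; points are libraries, lines group means, and the diamond is Cre library 4. Cebpb, Ddit4, Cebpg, Sesn2 and Chac1 show no overlap between the groups, while Atf4 and Ddit3 overlap and have their highest value in Cre library 4.

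In whole skin, ablation went with small changes in a few of these genes. Stc2, Eif4ebp1, Vldlr and Eif2s2 were lower in DTR skin, and Phgdh and Aldh18a1 were higher, of which only that of Stc2 reached 0.5 on the log2 scale. All 30 genes were tested, 24 did not pass, and 14 (46.7%) had an unadjusted p under 0.05, where 32.1% of all genes did. The share that rose, 6.67%, compares with 7.38% of all 12607 genes, and the share that fell, 13.3%, with 6.25%. The calls were fragile: with single libraries left out 0 to 1 rose and 2 to 4 fell, each of the 8 libraries taking at least 1 rise away, and with a spread shared by all 4 skin groups 0 rose and 2 fell. Phgdh, Aldh18a1 and Vldlr each lost their call without any of 6 of the 8 libraries and Eif2s2 without any of 7, while Stc2 and Eif4ebp1 kept theirs without any single library.

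Stc2, a secreted glycoprotein, read 6.96, 7.60, 8.04 and 8.04 FPKM in Cre and 4.28, 4.19, 4.23 and 5.81 FPKM in DTR skin, a log2 change of -0.63 (SE 0.09, limma adjusted p = 0.00326). Eif4ebp1 read 20.7, 21.6, 21.3 and 22.2 against 16.8, 16.6, 17.6 and 17.7 FPKM (log2 change -0.30, SE 0.04). In both, the groups did not overlap. Vldlr, a lipoprotein receptor with much of its expression in fat and muscle, went from 7.27 ± 0.80 to 5.94 ± 0.23 FPKM (SD, n = 4), and Eif2s2, the β subunit of eIF2, from 57.8 ± 3.6 to 50.6 ± 0.84 FPKM. Phgdh rose from 35.3 ± 1.7 to 39.9 ± 1.6 FPKM and Aldh18a1 from 4.38 ± 0.25 to 5.23 ± 0.27 FPKM. Fat and muscle markers fell alongside: the adipocyte markers summed to 554 ± 48.5 FPKM in the Cre group and 227 ± 21.2 FPKM in the DTR group, and the muscle markers to 1668 ± 637 and 712 ± 99.1 FPKM. The mast cell markers summed to 79.7 ± 9.02 and 226 ± 18.5 FPKM. Their part in the changes was not tested.

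The central genes were close to level in skin. Atf4 read 85.9, 81.1, 81.0 and 90.8 against 80.7, 78.2, 76.7 and 74.0 FPKM, lower in every DTR library but not past the test (log2 change -0.13, limma adjusted p = 0.0942). Ddit3 was at 14.6 ± 2.3 and 16.4 ± 1.5 FPKM, and Chac1 at 1.57 ± 0.30 and 1.23 ± 0.29 FPKM (SD, n = 4). Asns, at 12.1 ± 0.48 and 11.8 ± 0.89 FPKM, and Trib3, at 6.56 ± 0.33 and 6.47 ± 0.20 FPKM, changed sign when single libraries were left out. Cebpb, so low in sorted DTR cells, was at 73.3 ± 3.5 and 79.6 ± 2.5 FPKM in skin. Of the related lists, read against 7.38% of all genes up and 6.25% down, 5 of 20 IRE1 and ATF6 genes rose (Hyou1, a chaperone, 8.83 ± 0.39 to 11.2 ± 0.57 FPKM), 3 of 20 tRNA synthetases rose (Eprs, 15 ± 0.15 to 17.3 ± 0.22 FPKM), and 0 of either fell. Of 21 further ATF4 targets 3 fell and 0 rose, with the glutamine transporter Slc1a5 at 19.1 ± 2.7 and 12.8 ± 1.1 FPKM, and of 17 genes of the eIF2 kinase list 1 rose (Gcn1, the activator of GCN2).

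The ablation effect differed between sorted cells and skin in 12 of 30 genes, where it did in 27.7% of all 13153 genes. Cebpb differed by -5.34 (sorted effect less skin effect on the log2 scale, SE 0.27, limma adjusted p = 3.67e-10), Ddit4 by -2.24 (SE 0.15), Cebpg by -1.32 and Sesn2 by -1.23. Chac1, tested here because skin passed the filter, differed by -1.12 (SE 0.24, adjusted p = 0.00282 by limma). Psat1 at 1.30, Slc7a5 at 1.06, Psph at 0.79 and Aldh18a1 at 0.63 differed the other way, as did Stc2 (0.65) and Gpt2 (0.51). Stc2 and Gpt2 were under 1 FPKM in sorted cells. The Stc2 difference rests on skin, where its log2 change was -0.63. Gpt2 changed by only -0.12 in skin, and its difference rests largely on low sorted values, 0.0319 FPKM in Cre and 0.355 FPKM in DTR cells on average. The Stc2 difference did not pass at a pseudocount of 0.1 (limma adjusted p = 0.184). Atf4 did not differ beyond its error (-0.19, SE 0.30).

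β-alanine on the skin was followed by 0 called changes among the 30 genes by limma, and 6 (20%) had an unadjusted p under 0.05, where 9.81% of all genes did. Of all 12709 genes, 0.0157% rose and 0.197% fell. The smallest p belonged to Sesn2, which read 8.87, 8.21, 7.83 and 8.31 FPKM with PBS and 7.32, 6.64, 6.35 and 6.02 FPKM with β-alanine (log2 change -0.30, SE 0.07, limma adjusted p = 0.214). It was lower in every treated library. Cebpg (15.3 ± 0.52 and 13.1 ± 1.2 FPKM), Shmt2 (15.6 ± 0.34 and 12.9 ± 1.9 FPKM) and Mthfd2 (2.81 ± 0.33 and 2.33 ± 0.098 FPKM) also did not overlap, at limma adjusted p = 0.388, 0.425 and 0.467, and Slc3a2, at 46.2 ± 2.4 and 41.5 ± 2.0 FPKM, overlapped. Atf4 was at 113 ± 1.7 and 108 ± 5.0 FPKM, Ddit3 at 19.4 ± 0.35 and 17.2 ± 3.5 FPKM and Asns at 19.3 ± 2.6 and 17.2 ± 1.9 FPKM (SD, n = 4). Chac1, at 1.63 ± 0.072 and 1.88 ± 0.63 FPKM, and Trib3, at 5.59 ± 0.69 and 5.67 ± 0.53 FPKM, changed sign when single libraries were left out. In the related lists 0 of 17, 22, 20 and 20 genes passed. The mast cell markers summed to 228 ± 22.5 FPKM with PBS and 7.13 ± 1.68 FPKM with β-alanine in the same libraries.

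**Figure D4:**
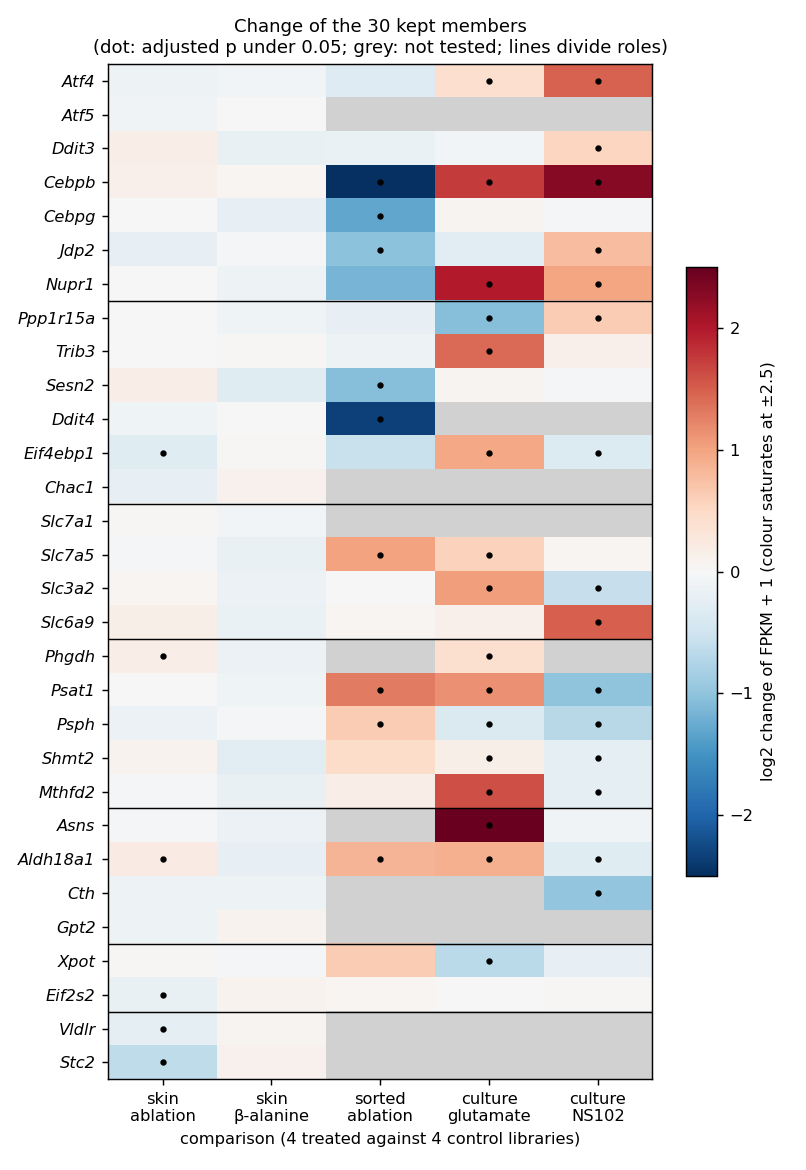
Change of the 30 kept genes in the 5 treatments against their controls, as colour on a log2 scale of FPKM + 1 that saturates at ±2.5, with genes ordered by role; dots mark an adjusted p under 0.05 and grey marks genes not tested. Dots number 6 for skin ablation, 0 for β-alanine, 9 for sorted cells, 16 for glutamate and 15 for NS102.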

How the data were processed

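The table the authors deposited holds FPKM values for 40 libraries, for which the submitters' processing notes name STAR, Cufflinks and the build mm9; versions, strandedness and depth are not given in the sources used here. Its columns were matched to samples by their header titles. FPKM values were tested as log2(FPKM + 1) with limma 3.58.1 (R 4.3.3, moderated by the mean trend), 4 against 4 libraries, over genes at 1 FPKM or more in at least 4 of the 8, or of the 16 for differences between 2 effects. p-values were Benjamini-Hochberg adjusted over all genes tested, with a threshold of 0.05. Of values under 0.1 FPKM, the most common ratio between 2 libraries of a group held only 7.63% to 23.14% of genes, so whole reads were not recovered and no count test was run.

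The members and all gene lists were chosen with earlier results of these data known. Values are given for Atf4, Ddit3, Asns, Chac1 and Trib3 throughout, for up to 15 members past the test by size of change, and, where under 5 passed, for those with the smallest p. Other lists are given by counts and up to 3 called genes with the smallest p. Further members below the filter are described after their values were seen. Alternatives were pseudocounts of 0.1 and 5, no filter or one of 5 FPKM, median centring, quantile normalization, limma without trend, a replicate block, a spread estimated over all groups of one sample kind, and leaving out each library.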

Additional observations from a re-analysis of the deposited data

Results flagged for a closer look

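A single library lay far from the rest of its group in 25 of 251 group and gene pairs searched, where chance gives about 1 in 20. Sorted Cre library 4 gave 5 of these: Atf4 at 39.9 FPKM, Nupr1 at 41.1 FPKM, Jdp2 at 9.59 FPKM, Shmt2 at 6.90 FPKM and Xpot at 3.21 FPKM, all the highest of the group. Other sorted libraries gave Eif4ebp1 at 19.9 FPKM (Cre library 1) and Phgdh at 2.91 FPKM (DTR library 2). In Cre skin these were Chac1 at 2.01 FPKM and Sesn2 at 5.18 FPKM (library 4), Mthfd2 at 2.002 FPKM (library 2) and Aldh18a1 at 4.75 FPKM (library 3). In DTR skin they were Slc7a5 at 9.63 FPKM (library 3), and Mthfd2 at 2.08 FPKM and Stc2 at 5.81 FPKM (library 4). With β-alanine they were Slc3a2 at 44.5 FPKM (library 2) and Gpt2 at 16.1 FPKM (library 1). In culture at 6 h they were Phgdh at 17.5 FPKM (vehicle library 2), and Slc7a5 at 24.9 FPKM and Eif2s2 at 11.5 FPKM (glutamate library 4). At 48 h with vehicle they were Trib3 at 1.23 FPKM (library 3), Slc3a2 at 136 FPKM (library 4) and Ppp1r15a at 20.01 FPKM (library 1), and with NS102 Psph at 6.71 FPKM and Mthfd2 at 11.7 FPKM (library 1) and Eif2s2 at 18.96 FPKM (library 4).

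The effect of ablation differed between sorted cells and skin by the limma test of the difference in 12 of 30 members, given as sorted less skin on the log2 scale. The same test called 27.7% of all 13153 genes. It was lower in sorted cells for Cebpb (-5.34), Ddit4 (-2.24), Cebpg (-1.32), Sesn2 (-1.23), Chac1 (-1.12) and Jdp2 (-0.83). It was higher for Psat1 (1.30), Slc7a5 (1.06), Psph (0.79), Stc2 (0.65), Aldh18a1 (0.63) and Gpt2 (0.51), of which Stc2 did not pass at a pseudocount of 0.1 (limma adjusted p = 0.184). The calls of Jdp2 and Aldh18a1 were lost when any of 13 and 10 single libraries, in this order, was left out.

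The effect of NS102 differed from that of glutamate in 19 of 23 members, given as NS102 less glutamate on the log2 scale. It differed in 75.9% of all 8896 genes. The effects on enzymes were lower for NS102: Asns (-2.55), Psat1 (-2.15), Mthfd2 (-1.86), Cth (-1.23), Aldh18a1 (-1.19), Phgdh (-1.01), Shmt2 (-0.38) and Psph (-0.33). So were those on the transporter chains Slc3a2 (-1.62) and Slc7a5 (-0.52), and on Eif4ebp1 (-1.30), Trib3 (-1.29) and Nupr1 (-1.01, not past the test at a pseudocount of 0.1, limma adjusted p = 0.177). Cth passed the filter through the 48 h vehicle libraries alone, so that its lower value was built in. Higher were the effects on Ppp1r15a (1.70), Slc6a9 (1.38), Atf4 (1.04), Jdp2 (1.04), Ddit3 (0.61) and Xpot (0.47). After median centring those on Jdp2, Ddit3 and Xpot no longer passed (limma adjusted p = 0.0502, 0.136 and 0.82).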

How the results depend on the processing

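In culture the counts held: over every alternative run, 11 to 18 members rose and 2 to 4 fell with glutamate, and 5 to 8 rose and 6 to 10 fell with NS102. Shares of all genes called were computed only for the main setting and for median centring. The other counts here have no such share beside them. In skin after ablation, the 2 rises became 0 without a filter, 1 with a filter of 5 FPKM, 1 after median centring, 1 without the trend and 0 with a shared spread, and 0 to 1 when a library was left out; the 4 falls became 3 without a filter or with quantile normalization, 5 after median centring (Ddit4 joined), 2 with a shared spread and 2 to 4 when a library was left out. With a shared spread 1 member fell after β-alanine. A filter of 5 FPKM, which tests fewer genes, left 1 rise and 2 falls in sorted cells, where leaving out single libraries gave 3 to 7 rises, and 3 rises at 48 h against 6 h of vehicle. Signs turned for Trib3 in sorted cells at a pseudocount of 0.1 (0.12), Ddit3 in sorted cells under quantile normalization (0.13), Ddit3 with glutamate after median centring (0.35), Psph with glutamate after median centring (0.048) and quantile normalization (0.015), Trib3 with NS102 (-0.041) and the Xpot difference between NS102 and glutamate (-0.0071), both under quantile normalization; the cause was not tested. With single libraries left out, log2 changes ran from -0.052 to 0.022 for Asns and from -0.042 to 0.0036 for Trib3 in skin ablation, from -0.0049 to 0.26 for Chac1 and from -0.054 to 0.063 for Trib3 with β-alanine, and in sorted cells from -0.48 to 0.21 for Trib3 and from -0.42 to 0.23 for Ddit3. Correlations of deviations between same-numbered libraries ranged from -0.25 to 0.37. In skin ablation 3 of 4 DTR libraries correlated most with the Cre library of their own number, and in the other comparisons 1 or 2 did so. The 2 vehicle groups were not checked against each other. Whether replicate numbers pair the libraries is therefore unsettled. With the replicate number as a block, falls in sorted cells went from 5 to 6 and differing ablation effects from 12 to 11. All other counts were as before. The shared spread was not run for sorted cells, which have no other groups of their kind, nor for differences between 2 effects. Depth is unknown, so no counting error can be given, and values under 1 FPKM rest on few reads.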
